A study of Homo sapiens with 22 samples.

Results

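RNA was compared between cells carrying the R52C form of NKX3.1 and cells carrying wild-type NKX3.1. NKX3.1 is a homeobox protein that regulates transcription in luminal cells of the prostate, and R52C replaces an arginine by a cysteine. The comparison used 12 of the 22 human libraries of the series, 6 titled R52C and 6 titled NKX3.1, and 21566 of 49149 genes, those above a log2 level of 3 in at least 4 libraries. All 12 carried titles naming RWPE1, a human line of immortalized prostate epithelium, and paraquat treatment. They were thus labelled as treated with paraquat, a compound that produces superoxide by redox cycling. Per the series' design text, both forms were overexpressed, and the control group of the same series carried an empty vector derived from pTRIPZ (Vector, 6 libraries). The remaining group carried another form, T164A (4 libraries). No library was untreated, so nothing below measures an effect of paraquat. The labels do not state whether a group's libraries derive from separate cultures or clones, so p-values measure only the spread among libraries, and that spread may be technical.

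The prostate epithelium has a luminal layer, whose cells secrete proteins such as prostate-specific antigen in response to androgen, and a basal layer anchored to the basement membrane by hemidesmosomes and marked by TP63 and high-molecular-weight keratins. NKX3.1 is one of the early markers of the luminal layer. The title of the series places NKX3.1 in mitochondria, where most subunits of the respiratory chain are imported products of nuclear genes and the rest are made from mitochondrial DNA (mtDNA).

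Levels are the deposited log2 values. A change is R52C minus NKX3.1 on that scale with its standard error, so a positive change means a higher level in R52C. The standard error and p-value rest on a spread shared by all 22 libraries. They thus include the spread within the Vector and T164A groups. P-values come from limma with Benjamini-Hochberg adjustment over all 21566 genes, two-sided. A gene is called where its adjusted p is below 0.05. A log2 level of 3 was taken as a floor of detection. Where libraries of the lower group fell under it, they were raised to 3 and the fold change is given as a bound. Every gene described as higher or lower below was called, with an adjusted p of at most 0.0358.

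The marker genes of prostate cell types did not match the label of the R52C libraries. RWPE1 is described as a line with basal features, yet TP63, the master regulator of basal cells, ranged in the R52C libraries from -0.71 to 2.98 (median 1.32), against 11.94 to 12.02 (mean 11.99) in the NKX3.1 libraries. All 6 R52C values lay under the floor, and TP63 was at least 509-fold lower there (adjusted p = 2.39e-18). KRT15, a basal keratin, also lay under the floor in all 6 R52C libraries, at 0.89 to 2.67, against 11.37 to 11.64 in the NKX3.1 libraries. All 6 basal markers chosen (TP63, KRT5, KRT14, KRT15, ITGB4 and COL17A1) and all 5 squamous markers (KRT1, KRT6A, KRT16, IVL and SPRR1B) were lower in R52C. All 8 luminal markers were higher. Among them KLK3, the gene of prostate-specific antigen, was at 16.52 to 16.61 (median 16.59) in R52C libraries and 14.72 to 15.02 (median 14.78) in NKX3.1 libraries, a change of 1.74 ± 0.20 (adjusted p = 9.95e-09). The groups did not overlap. The summed linear level of 22 basal genes was 8178 to 8738 in the R52C libraries, against 188960 to 207577 in the NKX3.1 libraries, and 14 of the 22 had an R52C mean above the floor, against 22 in the NKX3.1 libraries. This difference in basal and luminal markers accompanied every result below, and its part in them was not tested. In bulk RNA, fewer cells of a type and less RNA per cell cannot be told apart.

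Most listed markers of other cell types had means under the floor in both groups. Of 12 fibroblast and endothelial genes, 3 had a mean above it in R52C and 4 in NKX3.1. COL1A1 and the endothelial marker VWF, whose levels are given in the last paragraph, were above it in both. Of the neuroendocrine marker CHGA and the immune markers PTPRC and CD3E, none had a mean above 3 in either group. CD14, a monocyte marker also found in epithelium, was under the floor in all 6 R52C libraries and at 5.56 to 5.86 in the NKX3.1 libraries. COL1A1, a fibrillar collagen, averaged 8.05 ± 0.14 in R52C and 10.56 ± 0.07 in NKX3.1 (SD, n = 6 each), while COL3A1 was under the floor in all 12 libraries. IRS4, LIN28B and PAX2, which mark embryonal and kidney epithelium, had means under the floor in both groups, although IRS4 was called higher and LIN28B lower (adjusted p = 0.0358 and 0.0103, limma). The summed linear level of 13 immune genes was 152 to 162 in R52C and 571 to 676 in NKX3.1. That of 12 neuroendocrine genes was 1252 to 1332 in R52C and 983 to 1029 in NKX3.1. For 11 embryonal and kidney genes it was 47 to 58 in R52C, 55 to 67 in NKX3.1 and 49 to 67 in Vector. In T164A that sum was 15064 to 15438, so T164A levels given below come from libraries that also differ in these markers.

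The 6 R52C libraries fell into sets of 3. KRT5, the main basal keratin, lay between 0.55 and 1.72 in R52C replicates 4 to 6 and between 6.85 and 6.95 in R52C replicates 1 to 3, against 16.42 to 16.62 in the NKX3.1 libraries. In all, 34 genes were above the floor in each of R52C replicates 1 to 3 and under it in each of replicates 4 to 6, and 15 of the 34 had an NKX3.1 mean of at least 8. The reverse held for 12 genes, of which 0 had an NKX3.1 mean that high. Of all 21566 genes tested, 9907 had an NKX3.1 mean of at least 8. Replicates are numbered here in accession order and the labels name no batch. With R52C replicates 4 to 6 alone, 8209 genes were higher and 8116 lower, and 8155 and 8001 with replicates 1 to 3 alone.

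**Figure D1:**
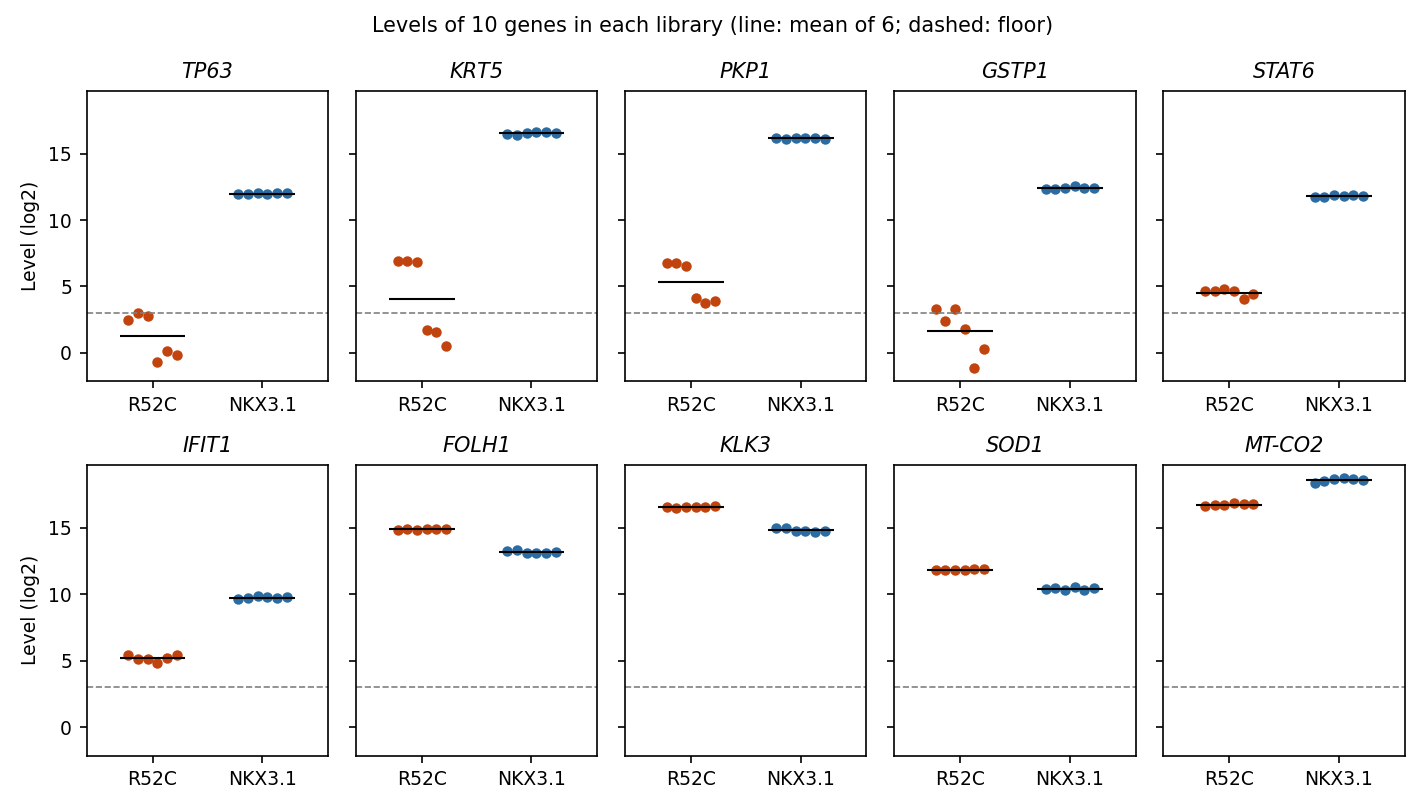
Log2 level of 10 genes in each of the 6 R52C libraries (left) and 6 NKX3.1 libraries (right); each point is a library, the line is the mean and the dashed line the floor of 3. Levels of TP63, KRT5, PKP1, GSTP1, STAT6, IFIT1 and MT-CO2 were lower in every R52C library than in any NKX3.1 library, and those of FOLH1, KLK3 and SOD1 were higher.

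Most of the genes tested differed. Of the 21566, 8787 (40.7%) were called higher in R52C and 8489 (39.4%) lower, and for 35.3% and 33.2% of genes, 68.5% in all, the 6 R52C libraries lay above or below all 6 NKX3.1 libraries. With 80.1% of genes called, a call alone says little about a gene, so sizes are given throughout. The shares of 40.7% higher and 39.4% lower are the background for every list count below. The balance of the directions depended on scale. The median level over tested genes was 7.35 to 7.37 in R52C libraries and 7.57 to 7.58 in NKX3.1 libraries, and shifting every library to the same median moved all changes up by 0.22. The called genes that were higher in R52C then made up 60.7%, in place of 50.9%. Changes smaller than about that shift therefore depend on the scaling.

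The directions were unlike in size. With values under the floor raised to it, 2650 genes were more than 1 log2 unit higher in R52C and 3405 more than 1 lower. Beyond 2 units the counts were 170 higher and 1622 lower, and beyond 3 units 0 higher and 964 lower. The highest change of any gene was 2.79 and the lowest -11.59. Among 9609 genes with an R52C mean of at least 8, the NKX3.1 level was never under 20.4% of the R52C level on the linear scale, a value set by CDYL2. For the same genes the lowest Vector level was 5.05% of the R52C level, and the lowest T164A level was 0.00122% of it. In the other direction, 719 of 9907 genes with an NKX3.1 mean of at least 8 had an R52C level under 20% of it. Under the floor in all 6 R52C libraries were 170 genes with an NKX3.1 mean of at least 8, of which 168 also had a Vector mean of at least 8. The T164A mean was at least 8 for 92 of the 170 and under 3 for 7. No gene was under the floor in all 6 NKX3.1 libraries with an R52C mean of at least 8 (0 genes), and 29 had an R52C mean of at least 4.

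**Figure D2:**
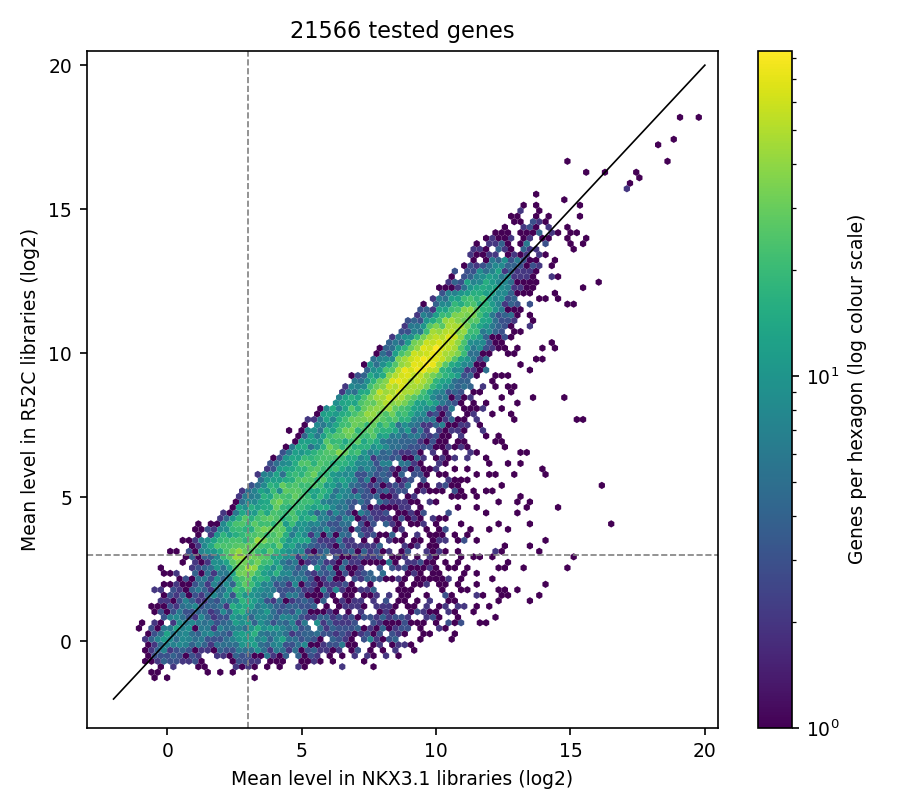
Mean log2 level of each of the 21566 tested genes in the R52C libraries (vertical axis) against the NKX3.1 libraries (horizontal axis), with the colour giving genes per hexagon on a log scale, the line of equality and the floor of 3 (dashed). Genes spread far below the line, down to -11.59, while the highest change above it was 2.79.

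The largest fall among genes above the floor in all 12 libraries was that of PKP1. PKP1, a desmosomal plaque protein of stratified epithelia, was at 3.72 to 6.77 (median 5.36) in R52C libraries and 16.09 to 16.19 (median 16.15) in NKX3.1 libraries. Its change was -10.83 ± 0.39 (adjusted p = 2.23e-19), and its R52C replicates 1 to 3 were all above replicates 4 to 6. FAT2, an atypical cadherin, changed by -9.92 ± 0.16, LAMB3, a chain of the basement membrane protein laminin-332, by -8.68 ± 0.15, and KRT14 by -8.35 ± 0.09. SFN, the epithelial 14-3-3 protein that holds cells before mitosis, averaged 4.59 ± 0.38 in R52C and 13.42 ± 0.09 in NKX3.1. ID1, an inhibitor of differentiation factors and a target of BMP signalling, averaged 3.82 ± 0.35 in R52C and 12.61 ± 0.11 in NKX3.1 (SD, n = 6 each for both genes). The other large falls were those of SULF2, an extracellular sulfatase acting on heparan sulfate (-8.55 ± 0.14), S100A14, a calcium-binding protein (-8.36 ± 0.17), MYOF, a membrane repair protein (-8.18 ± 0.13), TRIM29, a basal-cell tripartite motif protein (-7.98 ± 0.10), and UNC5B, a netrin receptor (-7.94 ± 0.07). SLC7A5, the light chain of the large neutral amino acid transporter, was still detected well above the floor in R52C, at 7.46 to 8.03, against 15.43 to 15.52 in NKX3.1. These genes were picked only among called genes whose R52C and NKX3.1 libraries do not overlap, so their lack of overlap is not a result.

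Genes under the floor in every R52C library were led, by their NKX3.1 level, by SPINK5, TP63, CLCA2, ANXA2, KRT4, GJA1, C6orf141, KRT15, SPRR1B and OLFML2A. ANXA2, an annexin that most adherent cells express, ranged from -2.11 to 2.94 (median 2.46) in the R52C libraries and from 11.60 to 11.81 (median 11.70) in NKX3.1 libraries, so that it was at least 416-fold lower in R52C. GJA1, the gap junction protein connexin 43, was at least 362-fold lower. ANXA2 averaged 12.18 in Vector and 12.47 in T164A, and GJA1 averaged 11.90 in Vector and 10.40 in T164A. Reads of ANXA2 can be shared with its processed copies, of which ANXA2P2 averaged 2.70 in R52C and 12.58 in NKX3.1.

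Squamous genes, which build the cornified layer, were 2 higher and 35 lower of 37 (background 39.4% lower), with a median change of -7.46 (-5.81 with values raised to the floor). Of the 37, 23 were under the floor in all 6 R52C libraries with an NKX3.1 mean above it. That combination was found for 6.77% of all genes tested. S100 and antimicrobial genes were 0 higher and 21 lower of 22, with a median of -7.77 (-6.35 with values raised to the floor).

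The adhesion structures of basal cells were lower as groups. The desmosome list had 12 tested members, 0 higher and 12 lower in R52C (background 39.4% lower), with a median change of -2.75, against 0.03 over all genes tested. With equal library medians 11 were lower and 1 higher. DSC3, a desmosomal cadherin, was at 5.90 to 6.55 in R52C libraries and 13.08 to 13.20 in NKX3.1 libraries. DSG1, the desmoglein of upper squamous layers, was at least 103-fold lower. The plaque proteins that other epithelia also use moved less, DSP by -3.66 ± 0.04 and JUP by -2.01 ± 0.03, and PERP, a desmosomal membrane protein and p53 target, by -3.49 ± 0.04. Of 10 hemidesmosome and laminin-332 genes, 2 were higher and 8 lower, with a median of -4.48. COL17A1, a transmembrane collagen of the hemidesmosome, was at least 927-fold lower (620-fold in R52C replicates 1 to 3 and at least 1386-fold in replicates 4 to 6), ITGB4 changed by -6.69 ± 0.05, and the cytolinkers DST and PLEC by -3.17 ± 0.05 and -2.76 ± 0.04. Among 16 integrin and matrix receptor genes tested, 2 were higher and 13 lower, with a median of -3.32. ITGA3 and ITGA6, laminin receptor chains, changed by -5.29 ± 0.04 and -3.67 ± 0.05, and ITGB6 was at least 155-fold lower. Tight and adherens junction genes were divided, with 12 of 22 higher and 10 lower and a median of 0.21. CLDN12 changed by 1.22 ± 0.03, while CLDN1, a claudin of squamous epithelium, was at least 116-fold lower and F11R changed by -1.16 ± 0.04.

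**Figure D3:**
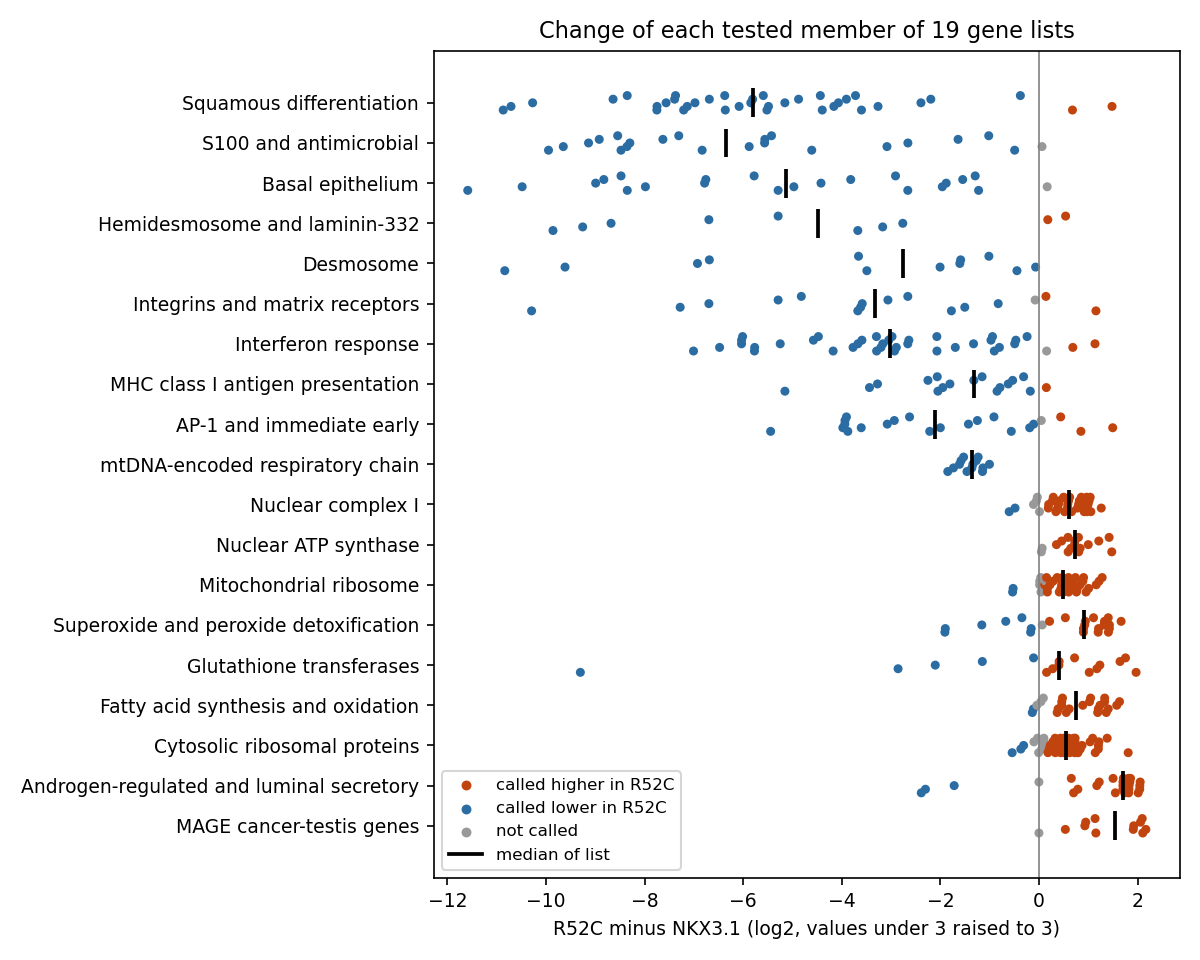
Change of each tested member of 19 gene lists (horizontal axis, R52C minus NKX3.1, log2, values under 3 raised to 3); each point is a gene, coloured by its call, and the line is the list's median. The basal list reached -11.59, the squamous list -10.87 and the interferon list -7.01, whereas the nuclear mitochondrial lists lay within about 1.5 units of 0 and the luminal secretory list was centred at 1.71.

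Of 29 androgen-regulated and secretory genes, 25 were higher (background 40.7%) and 3 lower, with a median change of 1.71. FOLH1, the gene of prostate-specific membrane antigen, was at 14.85 to 14.92 in R52C libraries and 13.09 to 13.32 in NKX3.1 libraries. SORD, sorbitol dehydrogenase, changed by 2.01 ± 0.06. The luminal lineage factors were 10 higher and 5 lower of 15, with a median of 1.82. HOXB13, a prostate homeobox factor, changed by 2.09 ± 0.10, GATA2 by 1.82 ± 0.06 and CREB3L4, a prostate-enriched bZIP factor, by 1.31 ± 0.04, whereas GRHL1, an epidermal grainyhead factor, changed by -3.22 ± 0.05. The list of luminal keratins was divided, with 3 higher and 2 lower of 5. KRT8 and KRT18 changed by 1.39 ± 0.14 and 1.18 ± 0.08, whereas KRT7 was at least 582-fold lower and KRT19 changed by -5.64 ± 0.08. The summed linear level of the 5 listed luminal keratins was 4633 to 5150 in R52C libraries and 9190 to 10372 in NKX3.1 libraries.

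Among the largest rises of well-detected genes, 8 lay between 2.14 and 2.29. CDYL2, a chromodomain protein, was at 9.13 to 9.42 (median 9.26) in R52C libraries and 6.34 to 7.19 (median 7.10) in NKX3.1 libraries, a change of 2.29 ± 0.12 (adjusted p = 5.96e-16). DDC, which makes dopamine and serotonin from their amino acid precursors, averaged 9.85 ± 0.08 in R52C and 7.63 ± 0.16 in NKX3.1 (SD, n = 6 each). The others were GUCY1A3, a subunit of the nitric oxide receptor guanylate cyclase, the actin bundler LCP1, WDR72, the protein kinase A subunit PRKACB, the lipoxygenase ALOX15, and PRUNE2. Vector libraries had lower means than NKX3.1 libraries for each of the 8, for example 5.56 for DDC and 9.39 for LCP1. T164A was at 1.71 for DDC and 9.03 for LCP1. Genes under the floor in all 6 NKX3.1 libraries were at low levels in R52C. FMO1, a flavin monooxygenase, IGSF1, the cancer-testis gene MAGEA8, the zinc finger gene ZNF385B, SHISA3, VWA5B1 and GNGT2 were among them, with R52C means between 4.13 and 4.32 and bounds of 2.18 to 2.49-fold. At such levels a gene lies close to the floor.

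ETS factors differed in direction. Of 18 tested, 4 were higher and 14 lower in R52C (background 40.7% and 39.4%). Their median was -1.65 (-0.94 with values raised to the floor). EHF, an ETS factor of differentiated epithelium, was at 13.25 to 13.35 in R52C libraries and 11.19 to 11.54 in NKX3.1 libraries, a change of 1.91 ± 0.05. ETS2 changed by -4.34 ± 0.07, ETS1 by -3.68 ± 0.09, ELF3 by -2.12 ± 0.07 and ELF1 by -1.80 ± 0.04.

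Interferon-stimulated genes were lower in R52C. Type I interferons signal through JAK1 and TYK2 to a complex of STAT factors and IRF9, which binds the interferon-stimulated response element in promoters of these genes. The core of that element, GAAA followed by any 2 bases and a further GAAA, is shown for the 4 listed genes with the smallest p that hold it before their start, in RefSeq sequence of GRCh38.p14, with matches on either strand in capitals (on the opposite strand TTTC, any 2 bases, TTTC) and overlapping matches joined. The windows, each on the strand of its gene, are chr3:122680798-122680831 on the plus strand for PARP14, chr10:89392495-89392541 on the plus strand for IFIT1, chr19:17405733-17405772 on the minus strand for BST2 and chr12:112938319-112938352 on the plus strand for OAS3.
PARP14: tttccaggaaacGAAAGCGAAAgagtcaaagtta
IFIT1: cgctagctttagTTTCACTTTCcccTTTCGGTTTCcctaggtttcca
BST2: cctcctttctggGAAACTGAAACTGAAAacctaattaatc
OAS3: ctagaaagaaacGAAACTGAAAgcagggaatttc
IFIT1 and BST2 hold 2 matches each, overlapping in BST2 and on the other strand in IFIT1, and PARP14 and OAS3 hold 1. In windows from 250 bases before to 50 after the start, 18 of 29 interferon genes with a RefSeq promoter (62.1%) held the core on either strand, against 3.65% of 27305 promoters and 2.87% of those of tested genes. It was held by 2.39% of promoters of genes called higher in R52C and 3.38% of those called lower. The list was drawn from known interferon targets, so its share describes the list and not these data.

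Of the 38 interferon genes, 2 were higher and 35 lower in R52C (background 39.4% lower), with a median change of -3.01. IFIT1, an antiviral protein that binds foreign RNA caps, was at 4.85 to 5.39 (median 5.17) in R52C libraries and 9.67 to 9.86 (median 9.76) in NKX3.1 libraries, a change of -4.57 ± 0.07 (adjusted p = 1.02e-27). BST2, which tethers virions at the cell surface, was at 3.23 to 4.19 in R52C libraries and 10.18 to 10.43 in NKX3.1 libraries. For both genes every R52C library was below every NKX3.1 library. OAS1, a sensor of double-stranded RNA, changed by -5.25 ± 0.08, its paralog OAS3 by -1.70, and PARP14 by -3.67 ± 0.05. Further up the pathway, 12 of 18 genes of the receptors, kinases and factors were lower and 4 higher. JAK1 was at 7.24 to 7.73 in R52C libraries and 10.68 to 10.90 in NKX3.1 libraries, a change of -3.26 ± 0.06. STAT6, the factor of interleukin-4 signalling, was at 4.06 to 4.77 in R52C and 11.72 to 11.87 in NKX3.1, a change of -7.26 ± 0.08. The interferon lambda receptor IFNLR1 was at least 38.5-fold lower, and IFNGR1, a chain of the interferon gamma receptor, and the factor IRF1 changed by -2.31 ± 0.05 and -3.20 ± 0.05. T164A libraries, by contrast with R52C, had means of 10.96 for JAK1 and 11.13 for STAT6.

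Genes of antigen presentation by MHC class I were lower as well. Of 17 genes, 16 were lower (background 39.4%) and 1 higher, with a median of -1.32. HLA-E changed by -2.25 ± 0.03, though reads are shared among class I genes and their counts are uncertain. The peptide-trimming enzymes ERAP2 and ERAP1 changed by -5.15 ± 0.06 and -2.06 ± 0.05, and the immunoproteasome subunit PSMB8 by -3.27 ± 0.08.

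Respiratory chain transcripts went in opposite directions by genome. All 13 mtDNA-encoded genes were lower in R52C, while most nuclear-encoded genes of every complex were higher. mtDNA-encoded transcripts made up 6.15% to 6.69% of the summed linear signal in R52C libraries and 14.3% to 16.3% in NKX3.1 libraries. The share was 15.1% to 17% in Vector and 7.62% to 7.8% in T164A. In complex I, the NADH dehydrogenase, all 7 mtDNA genes were lower, with a median of -1.34, and 31 of 37 nuclear genes were higher and 2 lower with a median of 0.60. Complex II, which has no mtDNA subunit, had 4 of 4 genes higher. In complex III, MT-CYB changed by -1.14 ± 0.04 while 7 of 8 nuclear genes were higher with a median of 0.88. In complex IV, the cytochrome c oxidase, MT-CO1, MT-CO2 and MT-CO3 changed by -1.61 ± 0.05, -1.85 ± 0.05 and -1.53 ± 0.06, and of 18 nuclear genes 13 were higher and 2 lower. In ATP synthase, MT-ATP6 and MT-ATP8 changed by -1.36 ± 0.04 and -1.27 ± 0.07, and 14 of 16 nuclear genes were higher and 0 lower.

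MT-CO2 was at 16.67 to 16.84 (median 16.76) in R52C libraries and 18.36 to 18.75 (median 18.66) in NKX3.1 libraries (adjusted p = 4.51e-22). ATP5A1, the catalytic core's alpha subunit of ATP synthase, was at 13.64 to 13.69 (median 13.66) in R52C libraries and 12.14 to 12.34 (median 12.25) in NKX3.1 libraries, a change of 1.42 ± 0.05 (adjusted p = 3.89e-20). Both genes separated the groups without overlap, in opposite directions. Other nuclear subunits were ATP5I (1.48 ± 0.06) of ATP synthase, UQCR10 (1.33 ± 0.08) of complex III, SDHC (1.03 ± 0.06) of complex II, NDUFB6 (1.04 ± 0.04) of complex I and COX8A (0.88 ± 0.06) of complex IV. COX15, an enzyme of heme A synthesis needed to assemble complex IV, went the other way (-0.50 ± 0.03). Under quantile normalization, which gives each library the same set of values, 1 of the 13 mtDNA genes was called higher and 11 lower. MT-ND4 reversed and MT-CO3 was at 0 there.

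**Figure D4:**
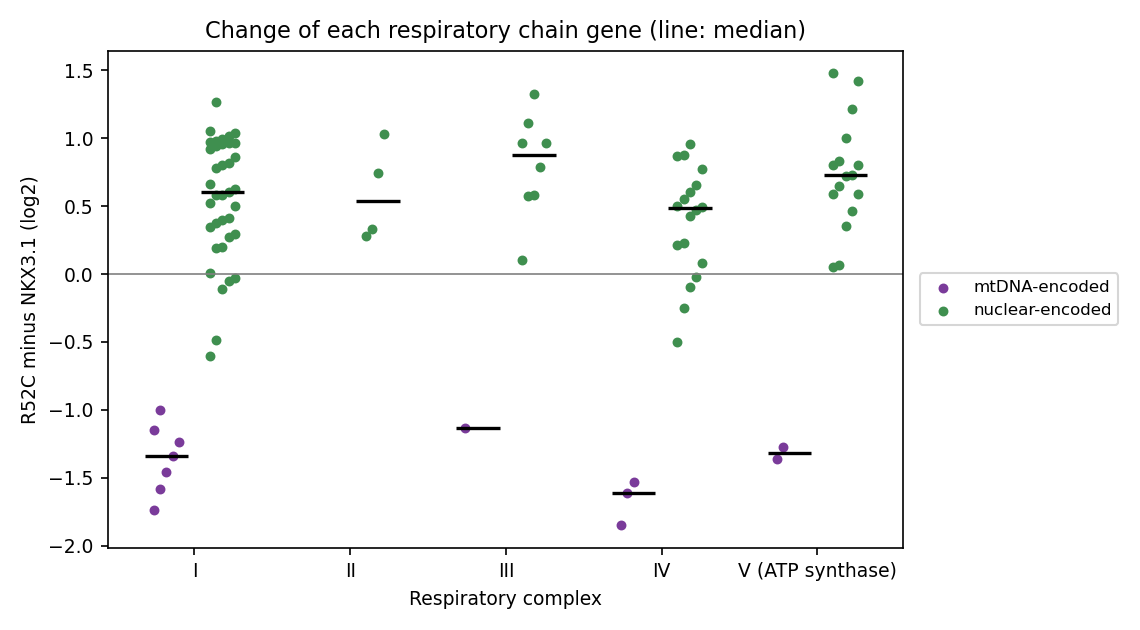
Change (vertical axis, R52C minus NKX3.1, log2) of each mtDNA-encoded and nuclear-encoded respiratory chain gene, by complex; each point is a gene and the line the median. All 13 mtDNA-encoded genes lay below 0, and the medians of the nuclear-encoded genes lay between 0.49 and 0.88.

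The machinery of mtDNA expression was mixed. Of 24 genes of mtDNA maintenance and transcription, 9 were higher and 11 lower (background 40.7% and 39.4%), with a median of -0.03. TFAM, which packages and transcribes mtDNA, averaged 11.42 ± 0.04 in R52C and 10.35 ± 0.05 in NKX3.1 (SD, n = 6 each), a change of 1.07 ± 0.03. SSBP1, the mitochondrial single-strand binding protein, changed by 1.07 ± 0.04 as well. POLG, the catalytic subunit of the mtDNA polymerase, changed by -1.02 ± 0.04 and the coactivator PPARGC1B by -1.66 ± 0.05. Mitochondrial ribosome genes were 32 higher (background 40.7%) and 2 lower of 40 (median 0.49). Import and chaperone genes were 24 higher and 2 lower of 28 (median 0.57).

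Enzymes that remove superoxide and peroxide, the species paraquat raises, were mostly higher in R52C. Of 24 tested genes of the detoxification list, 16 were higher (background 40.7%) and 7 lower, with a median of 0.92. The list also holds thioredoxin, glutaredoxin and methionine sulfoxide reductase genes and TXNIP, which do not themselves remove these species. SOD1, the cytosolic superoxide dismutase, was at 11.80 to 11.88 (median 11.86) in R52C libraries and 10.34 to 10.54 (median 10.41) in NKX3.1 libraries, a change of 1.43 ± 0.04 (adjusted p = 1.48e-21). The groups did not overlap. CAT, catalase, changed by 1.41 ± 0.04, PRDX2 by 1.43 ± 0.05 and PRDX3, the mitochondrial peroxiredoxin, by 1.41 ± 0.04. SOD2, the mitochondrial superoxide dismutase, named here after its value was seen, averaged 10.30 ± 0.08 in R52C and 10.24 ± 0.03 in NKX3.1. Its change of 0.07 ± 0.05 was not called (adjusted p = 0.18), but it was called higher once library medians were made equal (0.29). GPX8, an endoplasmic reticulum peroxidase, changed by -1.90 ± 0.06.

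GSTP1, the pi-class glutathione transferase, was lower in R52C. Its R52C libraries lay between -1.15 and 3.31 (median 2.11), against 12.32 to 12.55 (median 12.37) in the NKX3.1 libraries, and it was at least 631-fold lower. In Vector and T164A it averaged 12.93 and 12.85. GSTM3 of the mu class changed by 1.65 ± 0.07 and GSTO2 by -2.86 ± 0.07, and the list as a whole had 11 of 16 genes higher and 5 lower. NFE2L2, the gene of the antioxidant factor NRF2, averaged 10.17 ± 0.02 in R52C and 11.46 ± 0.08 in NKX3.1. Its pathway was divided, with 14 of 28 genes higher and 11 lower (background 40.7% and 39.4%). PIR, UGDH and ME1 changed by 1.54 ± 0.06, 1.48 ± 0.05 and 1.16 ± 0.04, whereas the aldo-keto reductases AKR1C1 and AKR1C2 were lower by at least 19.9-fold and 14.3-fold, and AKR1C3 by at least 9.71-fold. The AKR1C genes are close paralogs whose reads may be shared. Of 7 tested genes of the metallothionein list, which also holds metal regulators that are not metallothioneins, 1 was higher and 4 lower. Among the metallothioneins, which bind metals, MT1G was higher (2.16 ± 0.30). MT1X changed by -3.10 ± 0.08 and MT2A by -1.45 ± 0.05, and MT1E was at least 19.2-fold lower, and their reads may be shared too. The fourth lower gene was the zinc transporter SLC30A1 (-1.95 ± 0.04).

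Of 22 AP-1 and immediate early genes, 3 were higher and 18 lower, with a median of -2.26 (-2.11 with values raised to the floor). JUNB was at 8.34 to 8.53 in R52C libraries and 12.24 to 12.55 in NKX3.1 libraries, FOSL2 changed by -3.93 ± 0.05 and FOSL1 was at least 15.0-fold lower. PPP1R15A, which restores translation after the integrated stress response, was at 6.12 to 6.62 (median 6.38) in R52C libraries and 10.67 to 10.73 (median 10.70) in NKX3.1 libraries, a change of -4.32 ± 0.07 (adjusted p = 1.07e-26). That response as a whole was divided, with 11 of 28 genes higher and 15 lower (background 40.7% and 39.4%) and a median of -0.12. SLC3A2, the partner chain of SLC7A5, changed by -2.48 ± 0.06. Cytosolic heat shock genes were 5 higher and 9 lower of 16 (background 40.7% and 39.4%). HSPA1A was at least 78.0-fold lower, but its paralog HSPA1B changed by only -0.24, about the size of the shift between scalings. Reads are shared between these paralogs, so the value of HSPA1A alone does not give the change of the pair. HSPB1 changed by -2.17 ± 0.04, while HSP90AA1 changed by 1.04 ± 0.03. Endoplasmic reticulum chaperones were 15 higher and 3 lower of 21, with CALR at 0.96 ± 0.03, PDIA4 at 1.12 ± 0.04 and MANF at 1.24 ± 0.05. HSPA5, the main chaperone of that compartment, went the other way (-0.79 ± 0.03).

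Metabolic enzymes were mostly higher. Fatty acid genes were 19 higher and 2 lower of 24 (median 0.75), with ECI2 of beta oxidation at 1.63 ± 0.06, ACSL1 at 1.33 ± 0.03 and the elongase ELOVL5 at 1.37 ± 0.03. ELOVL4, an elongase of very long chains used in the skin barrier, was at least 67.7-fold lower. Of 21 genes on the tricarboxylic acid cycle list, 18 were higher and 2 lower. The list also holds cytosolic enzymes such as IDH1 and enzymes that feed the cycle, such as PDHB. SUCLG2 changed by 1.78 ± 0.06, PDHB by 1.49 ± 0.04 and IDH1 by 1.30 ± 0.04. Glycolysis genes were 14 higher and 5 lower of 20 (background 40.7% and 39.4%). ALDOC, PGK1 and LDHA changed by 1.57 ± 0.06, 1.35 ± 0.04 and 1.24 ± 0.04, whereas SLC2A1, the glucose transporter GLUT1, was at 9.85 to 9.99 in R52C libraries and 12.81 to 12.93 in NKX3.1 libraries. Sterol synthesis was divided, 12 higher and 8 lower of 21, against the same background. FDFT1 and INSIG1 changed by 1.27 ± 0.04 and 1.51 ± 0.04, and SQLE and LSS by -1.63 ± 0.04 and -1.32 ± 0.04. Polyamine genes, whose products the prostate secretes, were 9 higher and 1 lower of 12, with a change of 2.03 ± 0.07 for ARG2, mitochondrial arginase. AMD1, which makes the aminopropyl donor, was at 13.77 to 13.89 in R52C libraries and 11.94 to 12.13 in NKX3.1 libraries. Cytosolic ribosomal protein genes were 46 higher and 3 lower of 56 (median 0.55), with RPL15 at 1.38 ± 0.05.

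Cell cycle genes showed no common direction. S phase genes were 10 higher and 15 lower of 30 and G2 and mitosis genes 15 higher and 10 lower of 28. CDK1 averaged 11.69 ± 0.04 in R52C and 10.69 ± 0.05 in NKX3.1 (SD, n = 6 each). BIRC5 changed by 1.19 ± 0.05, and MKI67, MCM3 and MCM4 by -0.90 ± 0.03, -0.75 ± 0.03 and -0.70 ± 0.03. Of 15 cyclins, CDK inhibitors and related genes, 6 were higher and 8 lower, with a median of -0.38. CDKN2B, an inhibitor of CDK4 and CDK6, was at 4.92 to 5.67 (median 5.19) in the R52C libraries and had a median of 11.94 and a lowest value of 11.80 in the NKX3.1 libraries, a change of -6.69 ± 0.08 (adjusted p = 1.92e-30). CDK6 changed by -4.70 ± 0.07, CDKN2A by -2.07 ± 0.04 and CDKN1A, the gene of p21, by -1.85 ± 0.04. CCND1, cyclin D1, was higher (1.26 ± 0.04). In DNA mismatch repair, 4 of 11 genes were higher and 6 lower (background 40.7% and 39.4%). MSH6, a mismatch recognition protein, changed by -1.28 ± 0.03. The R52C and NKX3.1 libraries did not overlap for CDKN2B.

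Cancer-testis genes were mostly higher in R52C, and imprinted genes went both ways. Of 12 MAGE and CSAG genes tested of 17 listed, 11 were higher and 0 lower, with a median of 1.99 (1.53 with values raised to the floor). MAGEA12 was at 10.04 to 10.23 in R52C libraries and 7.82 to 8.17 in NKX3.1 libraries, and MAGEA3 and MAGEA6, near-identical genes whose counts are uncertain, changed by 2.10 ± 0.13 and 2.06 ± 0.12. Of 12 imprinted genes tested, 4 were higher and 7 lower (background 40.7% and 39.4%). H19, a maternally expressed noncoding RNA, was at least 94.8-fold lower, and PEG10 and PLAGL1 changed by -5.34 ± 0.09 and -3.40 ± 0.10, while GRB10 changed by 1.24 ± 0.03.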

How the data were processed

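RNA of 22 libraries was measured by poly-A selected Illumina sequencing, per the labels' protocols. Per the submitters' processing notes, the tools were DESeq, Cufflinks, TopHat and CASAVA 1.8.2 and the builds GRCh37 and mm9; their roles are not given. The deposited table holds log2 normalized values, per the file headers and values; how the authors normalized them is not given in the sources used here, and the depth in reads is unknown, which leaves no basis for intervals from counts. Summed linear signal was 17172925 to 21423840 per library. Of 56299 entries, 3473 had no gene name; for 501 repeated symbols the entry with the highest mean was kept. Values of genes with a mean under 0 almost never exceeded 2.81, hence the floor of 3.

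limma 3.58.1 (R 4.3.3) was fitted to all 22 libraries with a mean per group and a trend on expression, and was tested on simulated data. Genes were named by fixed rules. The 12 largest rises and falls were taken among called genes whose R52C and NKX3.1 libraries do not overlap. These also had to be above the floor in all libraries compared, with a mean of at least 8. The other rules took the 10 highest under the floor in the other group, up to 5 of each of 56 lists by p, the mtDNA genes and the markers. Of 1116 listed genes, 1106 were in the table and 1054 tested. Members and lists were chosen with earlier results of these data known. SOD2, OAS3, ANXA2P2 and HSPA1B were added outside the rules, after their values were seen. Reads of close paralogs (MAGEA, KRT6, KRT14 to KRT17, HSPA1, HLA, AKR1C, metallothioneins) may be shared. Promoter sequences are RefSeq's, GRCh38.p14, while the table gives no coordinates. Some genes chosen by these rules are not reported here.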

Additional observations from a re-analysis of the deposited data

Results flagged for a closer look

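In 9 of 340 groups of 6 libraries checked, 2.65%, a single library stood apart from the other 5 by Dixon's criterion, and chance flags about 1 in 20. TRIM29 was at 5.73 in R52C replicate 2 and at 4.86 to 5.02 in the other R52C libraries, PEG10 at 4.48 in R52C replicate 4 and at 3.91 to 4.08 in the others, and NFE2L2 at 10.21 in R52C replicate 6 and at 10.16 to 10.17 in the others. In NKX3.1 replicate 4, CDYL2 was at 6.34 (6.91 to 7.19 in the other NKX3.1 libraries), MT1E at 7.54 (7.14 to 7.29) and ELOVL4 at 9.24 (at most 9.09). In NKX3.1 replicate 1, MANF was at 10.01 (9.86 to 9.92) and MAGEA6 at 8.60 (8.24 to 8.37), and in NKX3.1 replicate 5 EREG was at 8.79 (8.89 to 8.95).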

How the results depend on the processing

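No paired analysis was possible because the labels give no replicate numbers, so libraries are numbered in accession order. The count of genes under the floor in all R52C libraries with an NKX3.1 mean of at least 8 was 170 at a floor of 3, 65 at a floor of 2 and 362 at a floor of 5, and depends on that choice. The 8787 genes called higher in R52C and the 8489 genes called lower in R52C stayed within 1.5 times in every alternative run. Without each library in turn, genes called higher in R52C ranged from 8620 to 8686 and genes called lower in R52C from 8346 to 8425. Under quantile normalization MT-ND4 reversed to 0.32 and MT-CO3 moved to 0 and lost its call; the method gives every library the same highest values. Once library medians were made equal, list medians reversed for mtDNA maintenance and transcription (0.19), the integrated stress response (0.11), S phase (0.12) and hypoxia response (0.054). SOD2 was called at 0.29 with that shift. Low markers near or under the floor moved between settings: CHGA, not called, reversed to -0.11 without NKX3.1 replicate 5 and to -0.0043 without R52C replicate 1, and calls of CHGA, COL3A1, IRS4, LIN28B and PAX2 changed in at least 1 setting. All other named genes kept their direction and call in every alternative that gave them a value, except that HSPA1B was not checked. Depth in reads is unknown, so precision at low levels rests on the spread between libraries.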

Other observations

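Growth factors and cytokines of the epithelium were lower in R52C. Of 14 genes of the EGF receptor family and its ligands, 3 were higher and 8 lower (background 39.4% lower). EREG, epiregulin, was under the floor in all 6 R52C libraries, at -1.17 to 2.23 (median -0.30), and at 8.79 to 8.95 (median 8.91) in NKX3.1 libraries, so that it was at least 59.7-fold lower. EPGN, epigen, was at least 21.6-fold lower, and TGFA and HBEGF changed by -3.63 ± 0.06 and -2.46 ± 0.07. Of 18 cytokine and NF-kB target genes tested of 29 listed, 3 were higher and 14 lower, with a median of -1.88 (-1.37 with values raised to the floor). IL1A, the alarmin interleukin-1 alpha, was at 1.91 to 3.03 in R52C libraries and 9.77 to 10.10 in NKX3.1 libraries. IL1B and IL18 were at least 28.1-fold and 93.4-fold lower, and IL1RN, their family's receptor antagonist, changed by -3.05 ± 0.08. Prostaglandin synthesis genes PTGS1 and PTGS2 were lower, PTGS1 by -7.08 ± 0.07 and PTGS2 by at least 11.9-fold. Their list of lipoxygenase and prostaglandin genes was divided, with 7 higher and 8 lower of 16 (background 40.7% and 39.4%).

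Of 14 tested genes of the Hippo pathway, 12 were lower (background 39.4%) and 1 higher. Their median was -2.54 (-2.07 with values raised to the floor). The list holds components of the pathway and targets of the coactivators YAP and TAZ. AMOTL1 was at 4.61 to 5.41 in R52C libraries and 11.34 to 11.52 in NKX3.1 libraries, and CRIM1 and AJUBA changed by -4.96 ± 0.09 and -1.98 ± 0.03. WWTR1, the gene of TAZ and one of the 12, changed by -2.93 ± 0.04. Of 17 mesenchymal transition genes, 2 were higher and 13 lower (background 40.7% and 39.4%). TGFBI, a matrix protein induced by TGF-beta, was at least 1218-fold lower (680-fold in R52C replicates 1 to 3 and at least 2185-fold in replicates 4 to 6), SPARC at least 11.2-fold, and SNAI2 changed by -4.42 ± 0.12. Promoter windows holding TAAGTA, the core sequence that NKX3.1 binds, on either strand were 3.35% of those of tested genes, 3.11% for genes called higher in R52C and 3.55% for genes called lower. VWF, an endothelial marker, was higher in R52C (1.85 ± 0.23), at 7.84 to 8.14 in R52C libraries and 5.90 to 6.51 in NKX3.1 libraries.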
